A study of Mus musculus with 32 samples.

Results

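The distal colon of untreated Myd88 knockout mice was compared with that of untreated wild-type mice, on 12 of the 32 arrays of the series. The members were chosen by title alone: 6 arrays titled untreated Myd88 knockout (KO) and 6 titled untreated WT, with no measured value used. Each array held total RNA of distal colon, and whether each came from a mouse of its own is not stated. The RNA was amplified, labelled with biotin and hybridised to an Affymetrix mouse expression array. The labels give the strain of both groups as C57 BL6NCr and the genotype of the knockouts as Myd88-/-, and carry no genotype entry for the untreated WT mice beyond their title. The mice of the series are described as at least 98% congenic to that strain. The labels used here state no age, sex, housing or litter for the untreated mice, nor which part of Myd88 was removed. Any other difference between the knockout line and the wild-type mice cannot be told apart from the loss of Myd88 in this design. The other 20 arrays served only as a second set of samples of the same genotypes: 10 arrays of WT and 10 of KO mice given 10 mg/kg azoxymethane (AOM, a carcinogen) at 6 to 8 weeks of age and, 1 week later, 2% dextran sodium sulfate (DSS, a polymer toxic to the colonic epithelium) for 3 days.

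Myd88 encodes the adaptor protein that couples most Toll-like receptors, which sense microbial products, and the receptors of interleukin-1 and interleukin-18 to the IRAK kinases and TRAF6, and through them to NF-kappaB. In the gut this pathway is known to respond to the resident bacteria and to take part in the production of antimicrobial proteins and in repair after injury. The untreated mice show how the genotypes differ without carcinogen or chemical injury.

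Few genes were called between the untreated genotypes, and of the genes called only Myd88 itself is on a pathway list used here. Of 34945 probe sets with a single gene symbol, 35 were called at an adjusted p under 0.05 (limma with Benjamini-Hochberg adjustment), which is 0.1% of those tested. They belonged to 32 genes. In KO colon 13 probe sets rose (0.0372% of those tested) and 22 fell (0.063%), and 14 of the 35 differed by at least 2-fold, 6 of them higher and 8 lower. At an unadjusted p under 0.05 there were 3607 probe sets, 10.3% of those tested. Without the array of KO replicate 3 the number that rose was 21, and without WT replicate 4 it was 8. In all 35 called probe sets the KO and WT ranges were apart, as they were in 275 of all probe sets (0.787%). Of the 32 genes, 18 kept their call whichever of the 12 arrays was left out. The other 14 lost it without at least 1 array, with adjusted p values up to 0.147: Snhg3 without WT 4 or 5, Pdpn without WT 2 or 4, Ctdspl without WT 1, 4 or 5, and Tlk1, Cep85, Rragd, Snrnp27, Casd1, Glb1, Stom, Wdtc1, 4933405L10Rik, Rabac1 and Clasp2 each without 4 to 11 of the arrays, left out singly.

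Values are on the log2 scale, where 1 unit is a 2-fold change, and differences are KO minus WT ± the standard error (SE) of the fit. Signals under 10 had been raised to 10, so 3.32 is the floor, the lowest value a probe set can have. On each array 18.7% to 22.3% of them sat there. Across probe sets, Pearson correlations were 0.964 to 0.977 among KO arrays, 0.976 to 0.983 among WT arrays and 0.968 to 0.980 between genotypes. Markers of the labelled tissue were bright: 17 measured markers of mature colonocytes averaged between 10.63 and 10.98 on the KO arrays and between 10.70 and 10.96 on the WT arrays. Markers of skeletal muscle (14 measured) averaged 4.41 to 8.21 in KO mice and 4.58 to 9.44 in WT mice, highest in WT 3 and KO 3, and markers of squamous epithelium (19 measured) 4.43 to 8.13 in KO mice and 4.54 to 5.88 in WT mice, highest in KO 3. With both list means as covariates, 10 probe sets rose and 14 fell, and 19 of the 32 genes kept their call. Xist was high (12.32 to 12.43) with Eif2s3y of the Y chromosome at 3.59 or less on replicates 1 to 3 of both groups. On replicates 4 to 6, Xist was low (4.56 to 5.90) and Eif2s3y lay between 8.32 and 9.18, so both genotypes held 3 arrays of each kind. Since the groups did not overlap for any called probe set, each of the 35 differed in the same direction in both kinds. With Xist as a covariate, 24 probe sets rose and 30 fell, and 30 of the 32 genes kept their call.

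Myd88 itself was lower in the knockouts but far from absent. Its single probe set lay between 7.53 and 7.81 (median 7.69) on the KO arrays and between 8.23 and 8.51 (median 8.44) on the WT arrays. No KO array reached the lowest WT array. The difference was -0.73 ± 0.06 (SE), a 1.66-fold lower signal, with an adjusted p of 0.000805 (limma) and a 95% confidence interval from -0.87 to -0.59. The sources used here do not say where in the transcript the probes lie, so a remaining signal does not show that intact transcript was present. In the treated mice the same probe set differed by -0.46 ± 0.10 (adjusted p = 0.015), with KO arrays from 7.49 to 8.31 and WT arrays from 8.26 to 8.61.

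The promoters of 3 genes are shown. Myd88 is the deleted gene. Glb1, outside the rule for naming and picked after the values were seen, fell while the gene overlapping it rose. S100g fell most among the called genes that lie on neither chromosome 4 nor chromosome 9. The promoter stretches come from RefSeq (build GRCm38.p6) and run 5′ to 3′ on the gene's strand, from 250 bases before to 50 bases after its start. They were matched by symbol, as were those of 29 of the 32 called genes. Capitals mark TATAAA in Myd88 and S100g and CACGTG, the E-box hexamer, in Glb1, each searched on both strands. The hexamer to mark was set for each gene separately: Glb1 held no TATAAA, and Myd88 and S100g held no CACGTG.
Myd88, chr9:119339969-119340268, minus strand: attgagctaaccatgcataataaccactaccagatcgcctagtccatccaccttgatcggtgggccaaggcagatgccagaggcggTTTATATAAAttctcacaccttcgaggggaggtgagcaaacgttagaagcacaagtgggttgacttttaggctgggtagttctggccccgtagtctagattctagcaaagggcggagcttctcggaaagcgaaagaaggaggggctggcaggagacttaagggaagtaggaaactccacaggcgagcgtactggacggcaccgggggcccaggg
Glb1, chr9:114400828-114401127, plus strand: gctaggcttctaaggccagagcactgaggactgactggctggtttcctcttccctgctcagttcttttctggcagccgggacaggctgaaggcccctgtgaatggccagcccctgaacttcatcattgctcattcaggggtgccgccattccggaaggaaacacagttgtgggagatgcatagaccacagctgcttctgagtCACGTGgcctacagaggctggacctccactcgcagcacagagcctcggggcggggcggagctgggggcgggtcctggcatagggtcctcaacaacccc
S100g, chrX:162964550-162964849, minus strand: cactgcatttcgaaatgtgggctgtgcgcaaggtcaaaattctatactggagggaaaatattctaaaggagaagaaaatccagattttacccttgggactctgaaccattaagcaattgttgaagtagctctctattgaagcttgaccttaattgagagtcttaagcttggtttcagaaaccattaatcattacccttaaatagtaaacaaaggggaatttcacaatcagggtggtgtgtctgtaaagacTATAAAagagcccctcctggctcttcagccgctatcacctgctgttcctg
TATAAA occurred in 13.6% of 32851 promoters of this length and CACGTG in 7.15%. GGGCGG, also searched but not marked, occurred in 35.7%. In Myd88 a forward and a reverse match of TATAAA overlap. The share of G and C was 54.0% in Myd88, 60.7% in Glb1 and 41.0% in S100g, against a median of 52.7% over all promoters.

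**Figure D1:**
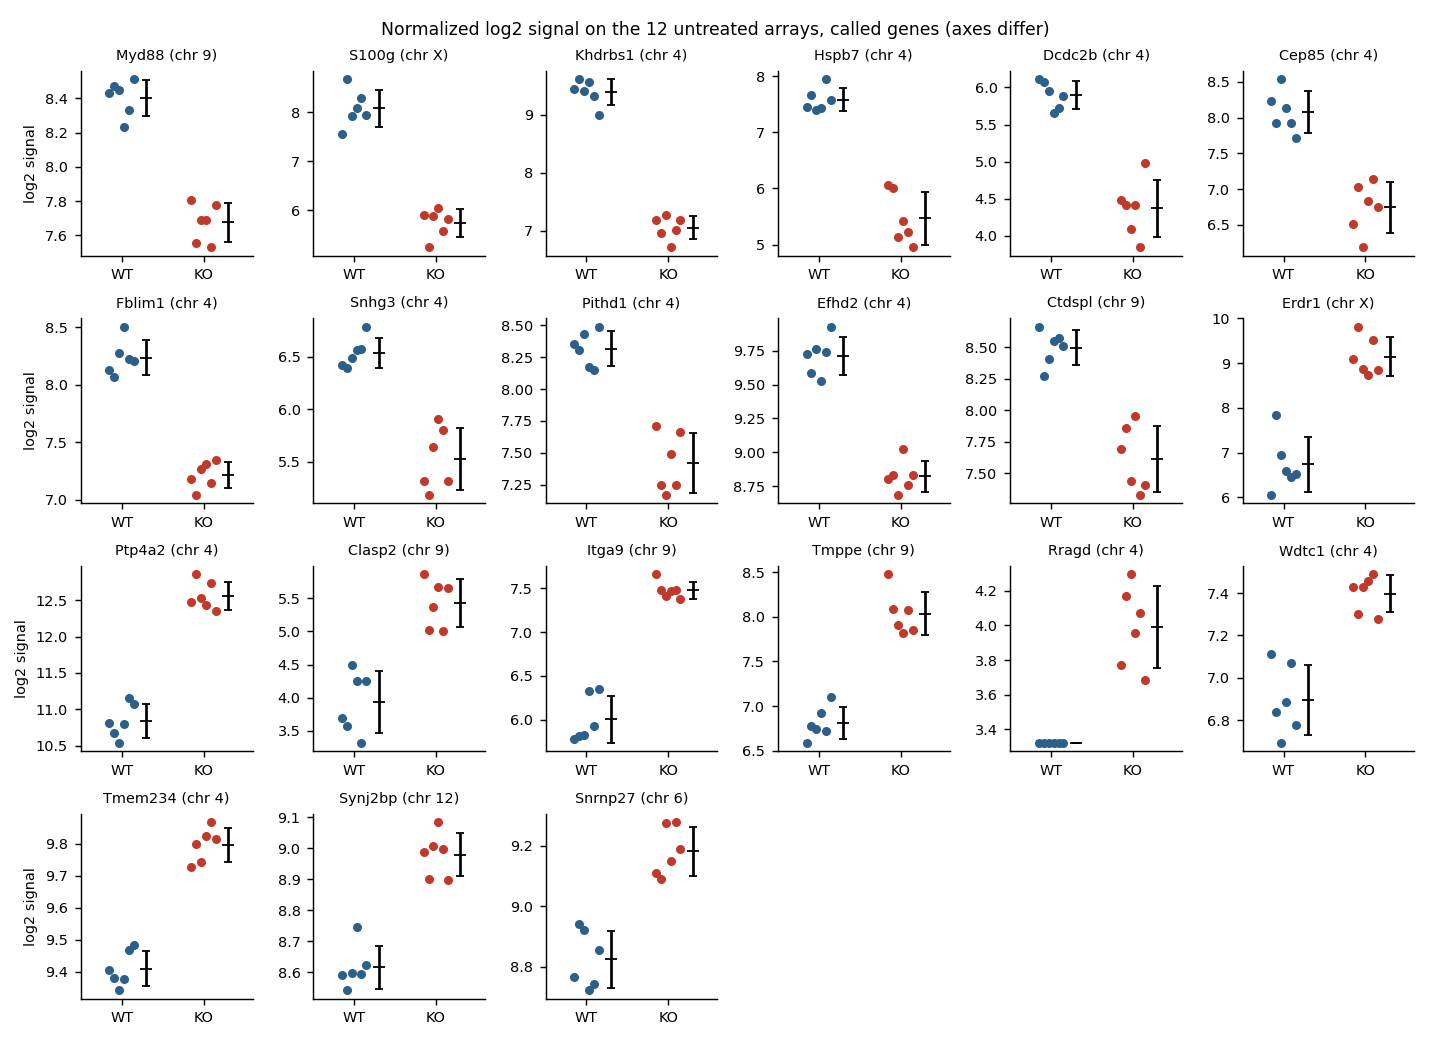
Normalized log2 signal (vertical axes, which differ between panels) on each of the 6 untreated WT (blue) and 6 untreated KO (red) arrays for Myd88 and the 10 largest falls and 10 largest rises among called genes (Rik clones left out, so 4933405L10Rik at 1.33 is not drawn), with the mean and SD in black. In each panel the 2 groups do not overlap, and all 6 WT arrays of Rragd lie on the floor.

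The called probe sets were concentrated on 2 chromosomes. Chromosome 4 held 17 of the 35 and chromosome 9, which carries Myd88, held 6, while 6.03% and 5.43% of the tested probe sets lie there. The other 12 were spread over 8 chromosomes. Apart from Rragd, the called genes of chromosome 4 fell in a stretch from Tmem234 to Pdpn that was delimited after the values were seen: of its 216 measured genes 14 were called, and of its 396 probe sets 16 (4.04%), 4 higher and 12 lower. At an unadjusted p under 0.05, 26.8% of the probe sets of this stretch differed, against 10.1% of those outside it and the Myd88 neighbourhood. Among Myd88 and the 25 measured genes on each side of it, 3 of 51 genes were called: Myd88, Itga9 and Ctdspl. Of the 34458 remaining probe sets of the array 16 were called, or 0.0464%.

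The largest changes on chromosome 4 went both ways. Khdrbs1, which encodes the RNA-binding splicing regulator Sam68, was measured at 6.71 to 7.27 (median 7.09) in KO mice, against 8.98 to 9.61 (median 9.43) in WT mice. It fell by 2.34 ± 0.12 on the log2 scale (adjusted p = 3.07e-05), the smallest p of the comparison, and the gap between the groups was wider than the spread of either. Ptp4a2, a protein tyrosine phosphatase that lies next to Khdrbs1 in the gene order, moved the other way. Its KO arrays lay between 12.35 and 12.85 (median 12.50) and its WT arrays between 10.54 and 11.15 (median 10.81), a rise of 1.72 ± 0.12 (adjusted p = 0.000368). Tmem234, a transmembrane protein, and Dcdc2b, a doublecortin-domain protein, overlap in the gene table and also moved apart. Tmem234 rose by 0.39 ± 0.03 (adjusted p = 0.000805), and Dcdc2b, with KO arrays between 3.84 and 4.98 and WT arrays between 5.65 and 6.11, fell by 1.53 ± 0.17 (adjusted p = 0.00587).

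Along the rest of the stretch most called genes fell. Efhd2, a calcium-binding protein of the actin cytoskeleton, was called on both of its probe sets. The first ranged from 8.82 to 10.32 in KO and from 11.55 to 11.86 in WT mice, and fell by 2.35 ± 0.21 (adjusted p = 0.001). The second fell by 0.89 ± 0.07 (adjusted p = 0.000674), so the direction was shared and the size was not. Hspb7, a small heat shock protein best known from heart and skeletal muscle, lay at 4.95 to 6.07 in KO mice, against 7.40 to 7.95 in WT mice, and fell by 2.11 ± 0.20 (adjusted p = 0.00188). With the squamous and skeletal muscle list means as covariates it stayed called, and the part of muscle in its fall was not tested further. Its other probe sets differed by 0.40 ± 0.23 and -0.02 ± 0.19. Fblim1, an adaptor of cell adhesions, fell by 1.02 ± 0.08 (adjusted p = 0.000476), Cep85, a centrosomal protein, by 1.34 ± 0.18 (adjusted p = 0.0191), Snhg3, a host gene of small nucleolar RNA, by 1.01 ± 0.13 (adjusted p = 0.0154) and Pithd1 by 0.89 ± 0.11 (adjusted p = 0.0101). The remaining called genes of the stretch were Wdtc1 (higher by 0.50 ± 0.07) and, outside the rule for naming and listed after their values were seen, Mecr, an enzyme of mitochondrial fatty acid synthesis (higher by 0.36 ± 0.04), Pnrc2, a cofactor of mRNA decapping (a difference of -0.66 ± 0.08), and Pdpn, the podoplanin of lymphatic endothelium and stroma (-0.51 ± 0.07). Rragd, a GTPase of nutrient sensing outside the stretch, lay between 3.68 and 4.30 in KO mice while all 6 WT arrays were on the floor, so the 1.59-fold higher signal of this probe set is a lower bound. The brighter Rragd probe set, off the floor on all 12 arrays, differed by 0.19 ± 0.23 (adjusted p = 0.822) and the other by -0.27 ± 0.15 (adjusted p = 0.604).

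On chromosome 9 all 6 called genes lay at or before Myd88 in the gene order. Itga9, the alpha 9 integrin subunit, is the 8th gene before Myd88 and Ctdspl, a phosphatase, the 7th. Itga9 was measured at 7.37 to 7.66 (median 7.47) in KO mice, against 5.78 to 6.35 (median 5.87) in WT mice, and rose by 1.47 ± 0.11 (adjusted p = 0.000476). Ctdspl ranged from 7.33 to 7.95 in KO and from 8.28 to 8.66 in WT mice and fell by 0.89 ± 0.12 (adjusted p = 0.0168). As on chromosome 4, the neighbours moved in opposite directions. Tmppe, a membrane protein with a phosphoesterase domain 30 genes before Myd88, rose by 1.23 ± 0.12 (adjusted p = 0.00197), with KO arrays from 7.82 to 8.48 and WT arrays from 6.59 to 7.10. Glb1, the lysosomal beta-galactosidase whose promoter is shown above and which overlaps Tmppe in the gene table, fell by 0.60 ± 0.09 (adjusted p = 0.0319), with KO arrays from 7.51 to 7.92 and WT arrays from 8.19 to 8.45. The position of each probe set within these overlapping genes is not given in the sources used here. Clasp2, a microtubule plus-end protein 38 genes before Myd88, rose by 1.50 ± 0.23 (adjusted p = 0.0496) from WT arrays between 3.32 and 4.49, 1 of them on the floor, to KO arrays between 5.01 and 5.86. In all, 4 called genes on chromosome 4 and 4 on chromosome 9 stood directly beside another called gene, and none elsewhere.

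**Figure D2:**
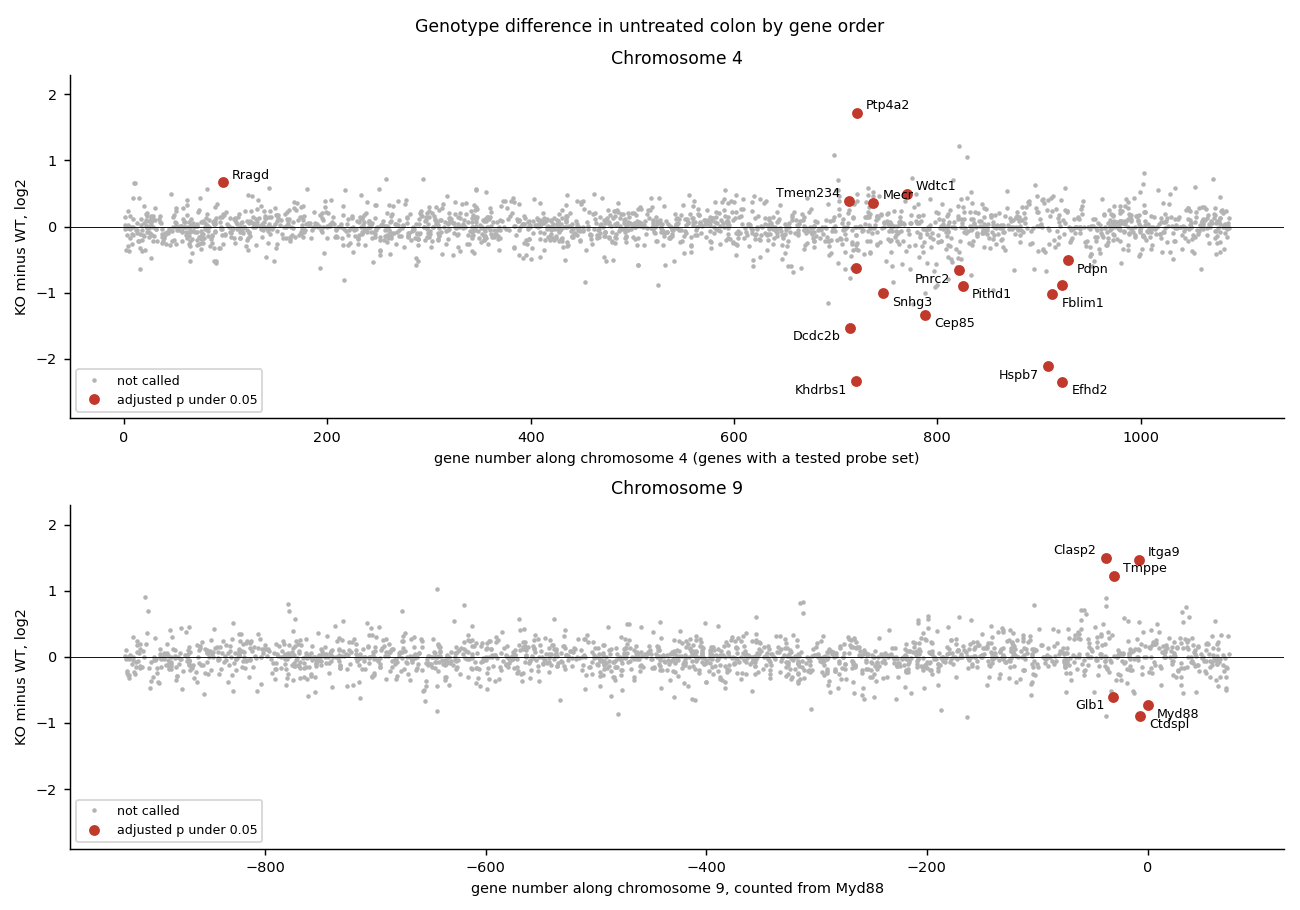
KO minus WT difference in untreated colon (vertical axis, log2) of every tested probe set on chromosome 4 (top) and chromosome 9 (bottom) by the order of measured genes along the chromosome (horizontal axis), with called probe sets in red. On chromosome 4 the called genes other than Rragd lie in a stretch of 216 genes, and on chromosome 9 the 6 called genes lie within 38 genes of Myd88.

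Outside these stretches the largest fall was that of S100g on the X chromosome, which encodes calbindin-D9k, the vitamin D-regulated calcium-binding protein of the intestine. It lay at 5.24 to 6.04 (median 5.85) in KO mice, against 7.56 to 8.68 (median 8.02) in WT mice. The fall of 2.34 ± 0.19 is a 5.06-fold lower signal (adjusted p = 0.000674), although with all 32 arrays in a single fit its adjusted p was 0.265. Erdr1, which the gene table places on the X chromosome, rose most of all genes, by 2.41 ± 0.29 (adjusted p = 0.0109), with KO arrays from 8.74 to 9.81 and WT arrays from 6.05 to 7.84. The other called genes differed by less than 1 unit, save the clone 4933405L10Rik (higher by 1.33 ± 0.20, with 4 WT arrays on the floor). Under the rule for naming these were Synj2bp, a mitochondrial outer membrane protein (higher by 0.36 ± 0.04), and Snrnp27, a splicing protein (higher by 0.36 ± 0.05). Listed after their values were seen were Myb, a transcription factor of crypt progenitors (-0.59 ± 0.07), Gda, guanine deaminase (-0.61 ± 0.06), Casd1, a sialic acid acetyltransferase (-0.30 ± 0.04), Tlk1, a chromatin kinase (-0.22 ± 0.03), Stom, the membrane protein stomatin (-0.22 ± 0.03), and Rabac1, a Rab-binding protein (0.33 ± 0.05). With all 32 arrays in a single fit, 18 of the 32 genes kept their call, and Myb, Gda, Synj2bp, Casd1, Tlk1, Stom and Rabac1 were among those that did not.

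Probe sets of a gene often did not move together. Of the 32 called genes 9 had a single probe set and 23 several. Among those 23, 9 had every probe set at an unadjusted p under 0.05, 11 had probe sets of both signs, and 4 passed the unadjusted threshold in both directions. Khdrbs1 had 7 probe sets: besides the one given above, a smaller fall was called at -0.63 ± 0.08, an uncalled one differed by -0.33 ± 0.13 at an adjusted p of 0.396, and the other 4 were between -0.27 and 0.00. Of the 4 probe sets of Ptp4a2, the 3 that were not called differed by 0.38 ± 0.07, 0.49 ± 0.12 and -0.24 ± 0.37. The brighter Fblim1 probe set differed by 0.24 ± 0.08, opposite to the called one, and the other Hspb7 probe sets by 0.40 ± 0.23 and -0.02 ± 0.19. Pnrc2 had an uncalled probe set at 1.23 ± 0.26, and those of Clasp2 ran from -0.90 to 1.50. By contrast, all probe sets of Mecr, Cep85, Dcdc2b, Tmem234, Gda and Erdr1 differed in the direction of the called one. Averaged over its probe sets, Ptp4a2 differed by 0.59 (adjusted p = 0.235), Itga9 by 0.70 (adjusted p = 0.0968), Hspb7 by -0.58 (adjusted p = 0.242), Pithd1 by -0.20 (adjusted p = 0.659) and Pnrc2 by 0.06 (adjusted p = 0.926), none of them called. By their names, 3 of the 35 called probe sets share probes with other genes' sequences (suffix x). Another 4 of the 35 match several transcripts (suffix s) and 7 of the 35 several transcripts of a gene (suffix a). Of all tested probe sets, 5.83%, 5.24% and 11.7% carry these suffixes.

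**Figure D3:**
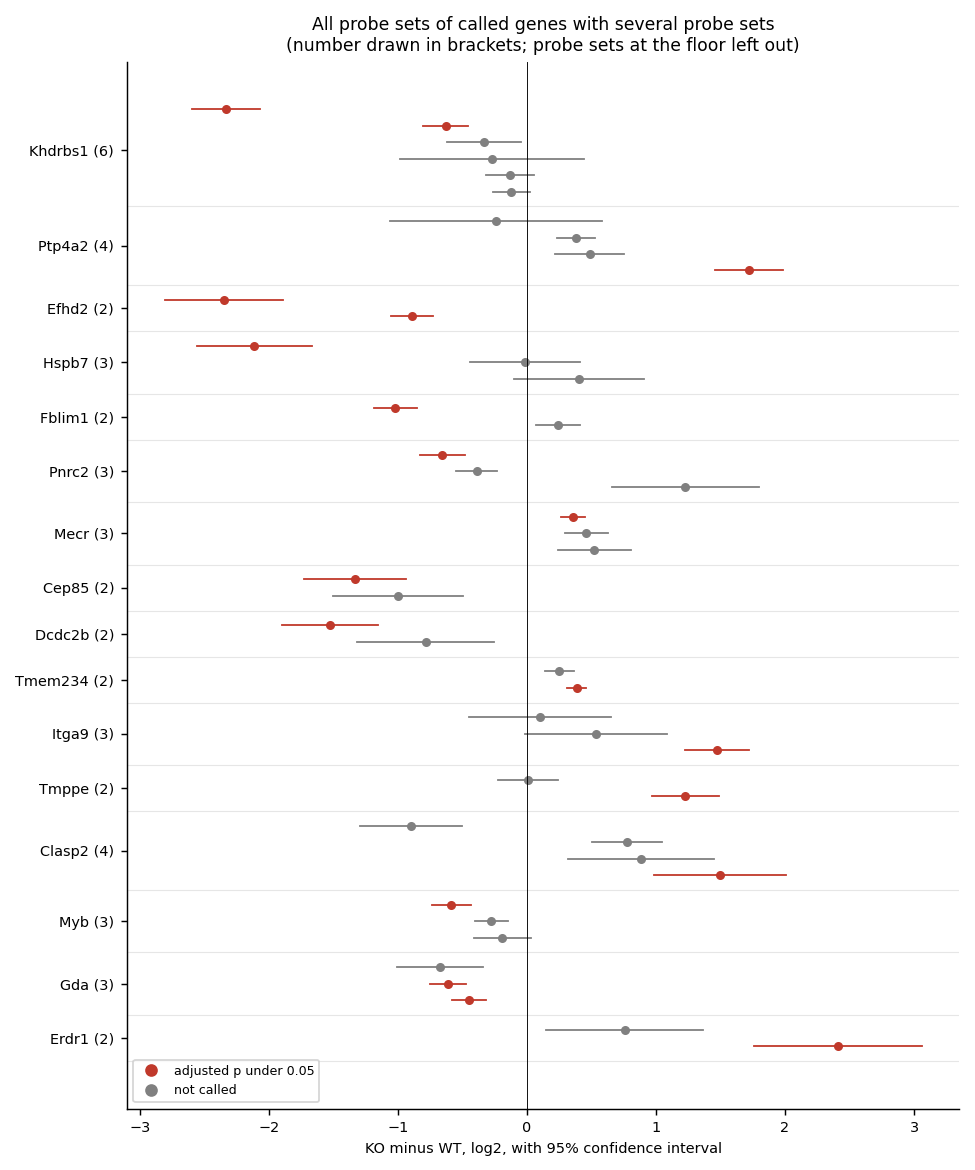
KO minus WT difference (horizontal axis, log2) with its 95% confidence interval for the probe sets of 16 called genes (those on the floor left out), red where called and grey where not. Khdrbs1, Ptp4a2, Hspb7, Fblim1, Pnrc2 and Clasp2 hold probe sets that differ from the called one in size or sign, while those of Mecr, Cep85, Dcdc2b, Gda and Erdr1 lie on its side of 0.

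The treated mice of the same genotypes gave a second measurement on arrays that the untreated comparison did not use. There 2147 probe sets were called between the genotypes, 6.14% of those tested. Of the 35 called in untreated mice, 29 differed in the same direction, against 54.3% of all probe sets, and 21 were called in that direction. These 21 are 60.0% of the untreated calls and 0.978% of the treated ones, and none was called in the opposite direction. On chromosomes 4 and 9, 18 of 23 called probe sets were called again, and 3 of 12 elsewhere: S100g, Erdr1 and Casd1. Of the 35, 12 had treated groups that did not overlap either, and all 12 lay on chromosomes 4 and 9. Among them were Khdrbs1, Ptp4a2, Itga9, the Efhd2 probe set with the larger fall and Tmppe. The share of all probe sets whose treated groups did not overlap is not given here, so these 12 have no background beside them. In treated mice Ptp4a2 differed by 1.66 ± 0.10 (adjusted p = 2.42e-08) and Itga9 by 1.72 ± 0.16 (adjusted p = 1.6e-05). Cep85 differed by -2.01 ± 0.20 (adjusted p = 1.74e-05). The Efhd2 probe set with the larger fall differed by -1.95 ± 0.08 (adjusted p = 9.67e-11). The other Efhd2 probe set, also called in untreated mice, differed by -0.16 ± 0.18 (adjusted p = 0.684, limma) and was not called in treated mice. S100g differed by -2.84 ± 0.59 (adjusted p = 0.00955), but there 3 of the 10 KO arrays, at 6.46, 6.56 and 7.99, lay inside the WT range of 6.40 to 8.75. Treated KO arrays 1 and 2 of S100g lay at 4.81 and 4.78, and the remaining ones on the floor at 3.32 (KO median 4.05). The size of this mean fall is therefore a lower bound. Of the 35, 6 had the opposite sign in treated mice, none of them called there: both of Gda (0.57 ± 0.27 and 0.63 ± 0.28) and those of Stom, Mecr, Synj2bp and Rabac1. The remaining Gda probe set, not called in untreated mice (-0.67 ± 0.15, adjusted p = 0.171), was called in the opposite direction in treated mice, at 0.90 ± 0.25 (adjusted p = 0.0418).

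Whether the genotype difference itself changed with treatment was tested as an interaction over all 32 arrays. Of all probe sets 10 were called (0.0286%), and of the 35 only that of Khdrbs1 with the largest fall, at 0.94 (adjusted p = 0.0349). Its KO minus WT difference was -2.34 ± 0.12 in untreated and -1.43 ± 0.11 in treated mice. For Pithd1 the interaction was 0.68 (adjusted p = 0.0675), and for the 3 Gda probe sets it was 1.20, 1.09 and 1.58 (adjusted p = 0.187, 0.258 and 0.0776). At an unadjusted p under 0.05 there were 15 of the 35, and the share of all probe sets at that threshold is not given here. The 35 were chosen for their untreated difference, which also enters the interaction, so this count does not measure change with treatment. A p above the threshold does not show that the difference was equal with and without treatment.

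**Figure D4:**
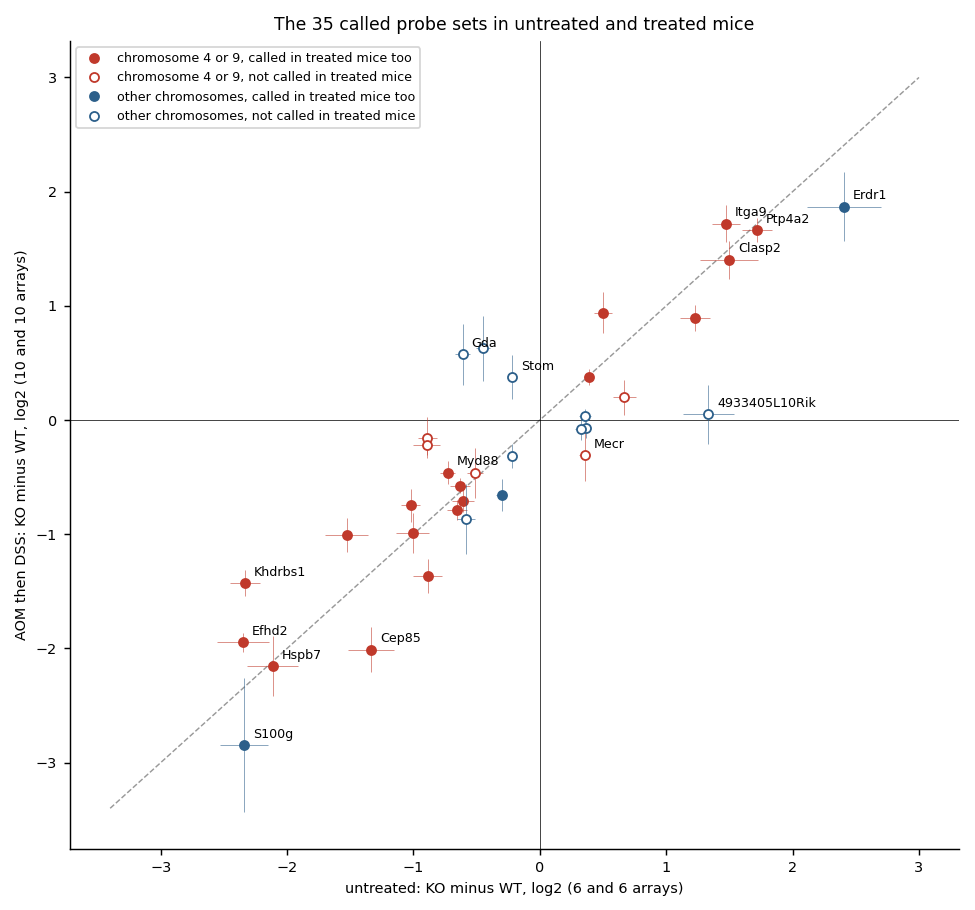
KO minus WT difference of the 35 called probe sets in untreated mice (horizontal axis, log2) and in AOM and DSS treated mice (vertical axis, log2), with SE bars and the line of equal values dashed. Filled points were called in treated mice too: 18 of 23 on chromosomes 4 and 9 (red) and 3 of 12 elsewhere (blue).

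Among genes of the Myd88 pathway and of epithelial defence, only Myd88 passed the adjusted threshold in untreated mice. Of 24 such genes listed, 23 had a probe set with a single symbol, and the brightest one was read for each gene. The adjusted threshold was passed by 0.1% of all probe sets. At an unadjusted p under 0.05 there were 5 of the 23 (21.7%), all lower in KO, against 10.3% of all probe sets and 11.4% of all genes by their brightest probe set. These 5 include Myd88 itself, the deleted gene, so its fall says nothing about the other listed genes. The rest of the 5 were Nfkbia, Tnfaip3, Pigr and Saa1. Il18, the epithelial cytokine that signals through Myd88 and that the title of the series names, was bright in both groups, at 10.68 to 11.29 (median 10.94) in KO mice, against 10.99 to 11.22 (median 11.14) in WT mice. Its difference was -0.18 ± 0.09 (adjusted p = 0.555) with a confidence interval from -0.39 to 0.03. Its receptor chains Il18r1 and Il18rap and its decoy Il18bp were dim, with medians between 3.51 and 4.97, and their intervals reached from -1.40 (Il18bp) to 1.46 (Il18rap). Il1b, the interleukin-1 beta that also signals through Myd88, differed by 0.27 ± 0.14 and its antagonist Il1rn by -0.09 ± 0.05, neither of them called. A dimmer probe set of Il1rn differed by -0.37 ± 0.08 (unadjusted p = 0.000707, adjusted p = 0.16, limma).

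Among the targets and brakes of NF-kappaB, Nfkbia, which encodes the inhibitor IkappaB alpha, lay at 11.07 to 11.39 in KO mice, against 11.35 to 11.60 in WT mice. Its difference was -0.29 ± 0.06 (unadjusted p = 0.000701, adjusted p = 0.16, limma). Tnfaip3, the ubiquitin-editing brake A20, parted the groups narrowly, with KO arrays at 8.89 or less and WT arrays at 8.89 or more, and differed by -0.27 ± 0.09 (adjusted p = 0.347). Pigr, the receptor that carries IgA across the epithelium, differed by -0.19 ± 0.05 (adjusted p = 0.229) and Saa1, an acute-phase protein, by -0.13 ± 0.05 (adjusted p = 0.418), both among the bright probe sets, with Pigr at 12.67 to 13.07 over the 12 arrays and Saa1 at 13.00 to 13.34. Il6, Nos2 and the antimicrobial lectin Reg3g were listed at the floor on all 12 arrays and Tnf on 10. Reg3b, Lcn2, Cxcl1, Cxcl2, Ptgs2 and Muc2 had differences between -0.43 and 0.25 on their brightest probe sets, none with an unadjusted p under 0.05. A dimmer Cxcl1 probe set differed by -0.34 ± 0.13 (unadjusted p = 0.0214, adjusted p = 0.378, limma). Retnlb, a goblet cell protein, lay on the floor on 5 WT and 2 KO arrays and reached 3.74 in WT and 6.21 in KO mice. Its difference of 1.08 ± 0.49 was the largest of the 23 in size (unadjusted p = 0.0509, adjusted p = 0.485, limma). Ang4, an antimicrobial ribonuclease, scattered widely in both groups: it ran from 3.86 to 9.67 in KO and from 3.95 to 7.26 in WT mice, and its interval from -1.16 to 2.90.

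**Figure D5:**
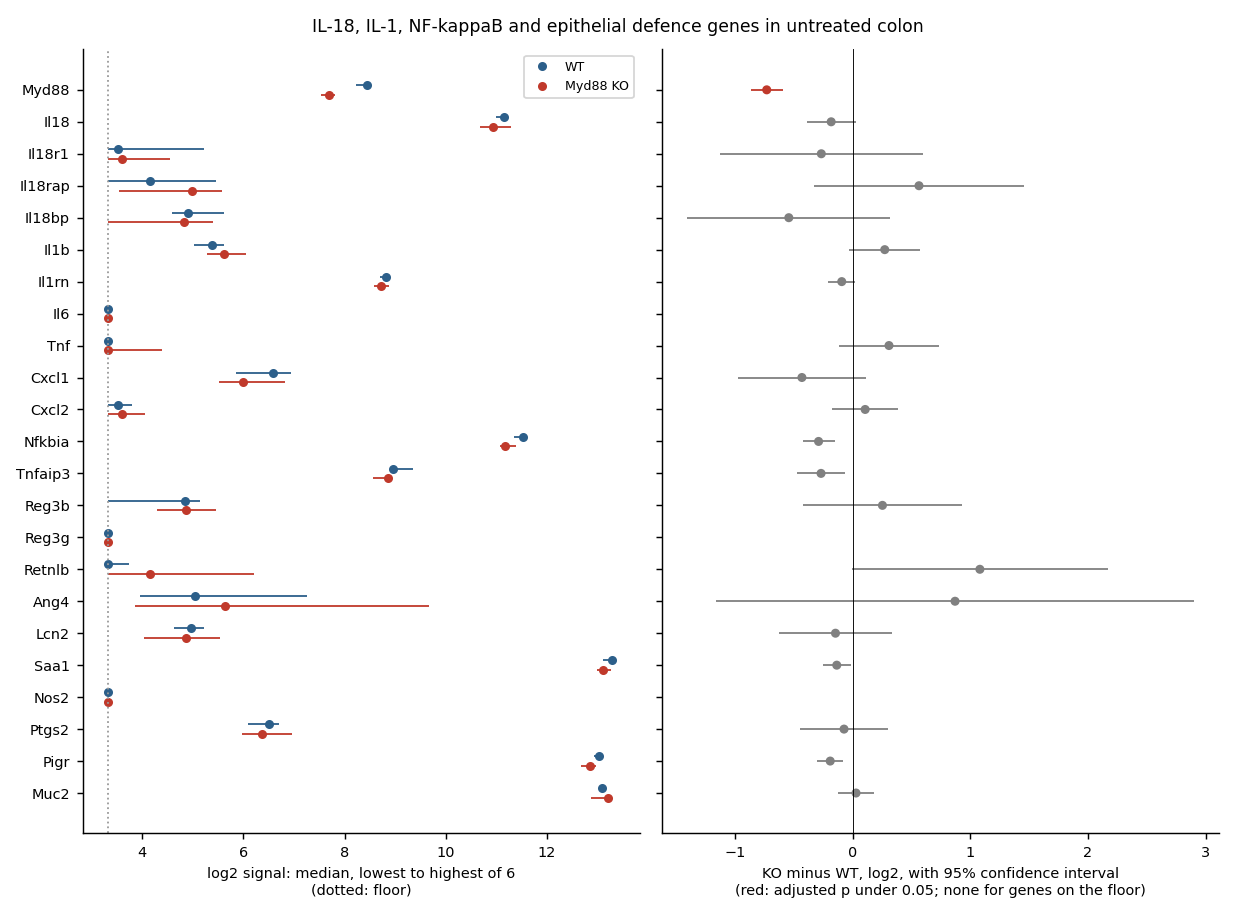
Left, the lowest, median and highest log2 signal of 6 untreated WT (blue) and 6 untreated KO (red) arrays for 23 genes of the Myd88 pathway and of epithelial defence. Right, KO minus WT differences (log2) with 95% confidence intervals, where Myd88 alone is called (red) and genes on the floor on all 12 arrays have no interval.

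Across 46 lists of pathway, cell type and sample check genes, with the brightest probe set for each gene, Myd88 was the only called member. Among all 18193 genes read in this way, 9 were called higher and 15 lower. At so low a share lists of this size would hold few calls whatever their genes, so missing calls say little about them. The list of Toll-like receptors and adaptors had 22 measured members, 16 of them lower in KO, with a median of -0.09 and a single call, and its brightest uncalled member was Tlr1, at -0.10 ± 0.08. Over all 18193 genes the median was 0.00 and 11.4% reached an unadjusted p under 0.05. Of 27 measured interferon-induced genes 23 were lower in KO mice, with a median of -0.21, and 10 (37.0%) reached that unadjusted threshold, all of them lower. None was called. Examples chosen after the values were seen are Rsad2, an antiviral enzyme (-0.69, adjusted p = 0.263), Ifit1 (-0.82, adjusted p = 0.356) and Ifih1, a sensor of viral RNA (-0.34, adjusted p = 0.197). In treated mice 11 of the same 27 genes were lower and the median was 0.09.

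Several other lists with many members on one side were likewise without a call. Of 25 mitosis and spindle genes 22 were lower in KO mice, with a median of -0.13 and 6 at the unadjusted threshold, among them Bub1 of the spindle checkpoint (-0.53, adjusted p = 0.202). In treated mice all 25 were lower, with a median of -0.35 and 2 called. Over all 18193 genes by their brightest probe set, 612 were called higher and 607 lower in treated mice. Genes of DNA replication lay on the other side: 16 of 20 were higher, with a median of 0.08 and 1 at the threshold, and in treated mice 9 were higher. Of 18 cholesterol synthesis genes 16 were higher, with a median of 0.14 and 6 at the threshold, and in treated mice 15 were higher. Of 12 matrix remodelling genes 10 were higher, with a median of 0.12 and 4 at the threshold, among them Mmp3, stromelysin (0.90, adjusted p = 0.262). Of 17 epithelial junction genes 13 were lower, with a median of -0.11 and 6 at the threshold, among them Ocln, occludin (-0.24, adjusted p = 0.126). With the arrays centred on their medians that median was -0.06, with 11 lower, and in treated mice 11 were higher. These 6 lists, the interferon-induced genes included, kept the sign of their median under all 3 scalings, and they are described here because of their counts.

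No list of cell types had a called member, which says little given the low share called over all genes. Of the immune lists, the macrophage, neutrophil, mast cell, T cell, B and plasma cell and dendritic cell markers had medians between -0.01 and 0.16, with 0 to 3 members at the unadjusted threshold. Goblet cell markers had a median of 0.05 and mature colonocyte markers 0.03, with 9 of 15 and 11 of 17 members higher. With arrays centred on their medians these were 0.14 (11 higher) and 0.11 (14 higher), and as deposited 0.15 and 0.12 with the same numbers higher. Skeletal muscle markers were higher in 13 of 14 members (median 0.52) and adipocyte markers in 9 of 10 (median 0.33), none of them at the unadjusted threshold. The part of skeletal muscle in the differences above was not tested beyond the covariate fit already given, and that of adipocytes was not tested. In whole tissue, fewer cells of a type and less RNA for each cell cannot be told apart.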

How the data were processed

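Signals were taken from the series table of log2 values as deposited. The authors' log2 values had been scaled to a common level (2% trimmed means of the linear signals between 150.9 and 151.2 on the 12 arrays) and floored at a signal of 10, as read from the values. The summarisation software is not given in the sources used here. The 12 arrays were quantile normalized alone, the 20 treated arrays alone and, for the interaction, all 32 together. Of 45101 probe sets, 64 controls were left out. The platform annotation gave 34945 a single symbol, 932 several and 9160 none, and 99.4% of the 34945 were matched by gene ID to the RefSeq gene table (GRCm38.p6), used for names and gene order. Genotypes were compared with limma 3.58.1 in R 4.3.3 (10 residual and 0.814 prior degrees of freedom, two-sided, Benjamini-Hochberg over all probe sets), and a probe set was called at an adjusted p under 0.05. Intervals are 95%. The number of arrays limits the precision: the median SE was 0.135. The labels do not say that the arrays of a group came from separate mice, so p-values measure only the spread between these arrays, which may be technical. The fit was tested on simulated data. The genes named are Myd88, the 10 largest called rises and falls (a probe set for each gene, no predicted genes, at most 1 immunoglobulin gene in each direction), up to 3 called members and the brightest uncalled member of each list with a call, 24 listed pathway genes, and neighbours of Myd88 (25 on each side). The comparison and the lists were chosen with earlier results of these data known. No paired fit was used as the main one because the repeat numbers are not said to pair mice and the deviations of arrays with the same number correlated between -0.05 and 0.12.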

Additional observations from a re-analysis of the deposited data

Results flagged for a closer look

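Among 188 groups of values looked at, 6 held an array that stood apart from the rest of its group (the test flags about 1 group in 20 by chance). In untreated WT mice, replicate 3 had a skeletal muscle marker mean of 9.44 against 4.58 to 4.89 on the other 5 arrays. The clone 4933405L10Rik was at 4.47 in WT replicate 1 against 3.32 to 3.56, Reg3b at 3.32 in WT replicate 4 against 4.62 to 5.15, and Retnlb at 3.74 in WT replicate 2, with the other 5 arrays on the floor. In treated mice, Erdr1 was at 8.82 in WT replicate 4 against 5.89 to 6.80, inside the range of the treated KO arrays. Tlk1 was at 8.76 in treated KO replicate 4 against 9.21 to 9.67. The genotype difference of Khdrbs1 differed between untreated and treated mice by 0.94 in the interaction test (adjusted p = 0.0349, limma).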

How the results depend on the processing

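The main counts were 13 probe sets higher and 22 lower. Median centring gave 7 higher, the mean of a gene's probe sets 8 higher and 12 lower, the Xist covariate 24 higher, and the squamous and skeletal muscle covariates 14 lower. An adjusted p under 0.01 left 5 higher and 9 lower, and a difference of at least 2-fold 6 higher and 8 lower. Leaving out each array in turn gave between 8 and 21 higher and between 15 and 29 lower. Leaving out both replicates 3, chosen after seeing the data, gave 12 lower. With the replicate number as a block, 0 were higher and 1 lower (Fblim1), at 5 residual degrees of freedom. The numbers are not said to pair the mice, and 1 of 6 KO arrays correlated best with the WT array of its own number. Under the block the adjusted p of Myd88 was 0.0566. The interaction call of Khdrbs1 was lost with the values as deposited (0 calls). The untreated calls repeated in treated mice numbered 21, and 10 at an adjusted p under 0.01. Of the 32 genes, 30 kept their direction under every setting run. Fblim1 was 0.24 with its brightest probe set and Pnrc2 0.059 as a mean of probe sets. Among the 32 genes, 31 lost their call under the block, 17 without both replicates 3, 14 with all 32 arrays, 13 with the tissue covariates, 12 with median centring and 0 with a trended, robust prior. Genes on the floor could not show a fall, and 3 of the 32 genes were removed with the dim probe sets.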
